A study of Mus musculus with 18 samples.

Results

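Siglecs and paired inhibitory receptors are cell surface proteins that restrain leukocytes. The 7 genes described here, of 54446 in the deposited table, are Cd33, Siglece, Siglecf, Pirb, Lilrb4a, Sirpa and Cd101, each taken by its symbol as the annotation pairs it with an Ensembl identifier. All 7 had a row and passed the filter for testing. The libraries came from eosinophils of the peritoneal cavity of Il5Tg mice (line NJ.1638, C57BL/6 in the labels), which carry an Il5 transgene and so overproduce eosinophils. All groups, controls included, met apoptotic cells (ACs) for 18 h, at 5 ACs to each eosinophil, and these ACs were wild-type thymocytes that dexamethasone had killed. In the Type 1 experiment (12 libraries) the 4 groups were ACs with no stimulus, then ACs with E. coli, with IFN-γ, or with both. The paper describes the last group as given IFN-γ first and E. coli after it. In that group the order of exposure cannot be told apart from an interaction of the stimuli. A further 6 libraries, the IL-4 experiment, compared a separate set of ACs controls with IL-4 + ACs. Each group had 3 libraries. Ages of the eosinophil donors are not given in the sources used here. The paper describes eosinophils exposed to ACs as coming from a different mouse per lane where it sets them against non-activated cells, and does not repeat this for the stimulated groups, so the p-values measure the spread between these samples.

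Most Siglecs bind sialic acid on glycans of the same or of a neighbouring cell, and many carry an immunoreceptor tyrosine-based inhibitory motif (ITIM) in the cytoplasmic tail. When Src family kinases phosphorylate the tyrosine of this motif, the phosphatases SHP-1 and SHP-2 are recruited and dampen nearby activating signals. Paired receptors such as PIR-B and the LILRB proteins work alike, beside activating relatives with almost the same ectodomain that signal through adaptors. SIRPα reads CD47, the signal by which a living cell holds off a phagocyte, which makes it a receptor of interest where eosinophils meet dying cells. Siglec-F is the surface protein by which mouse eosinophils are usually recognised. Here it was also the selection marker, since the cells were purified again with anti-Siglec-F beads after culture, so the Siglecf transcript was measured in cells chosen for its protein.

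Members and relatives of the Siglec family lie close together on chromosome 7 of GRCm38. Siglecf (ENSMUSG00000039013.16) spans chr7:43351341-43359531 on the plus strand, and its neighbour Siglecg, which is no member but is described below, spans chr7:43408204-43418358 on the same strand. Cd33 (ENSMUSG00000004609.11, chr7:43524216-43544428) and Siglece (ENSMUSG00000030474.9, chr7:43651070-43660161) follow on the minus strand. The promoters of Siglecf, Cd33 and Siglece are shown because these genes share a cluster and differed in their response. Each runs from 250 bases before to 50 bases after the RefSeq start, on the transcribed strand of GRCm38.p6. The windows are chr7:43351091-43351390 on the plus strand for Siglecf, chr7:43533122-43533421 on the minus strand for Cd33, where RefSeq starts the gene inside the span given above, and chr7:43660112-43660411 on the minus strand for Siglece. Capitals mark bases in an exact run of at least 12 bases that Siglecf and Cd33 have in common.
Siglecf: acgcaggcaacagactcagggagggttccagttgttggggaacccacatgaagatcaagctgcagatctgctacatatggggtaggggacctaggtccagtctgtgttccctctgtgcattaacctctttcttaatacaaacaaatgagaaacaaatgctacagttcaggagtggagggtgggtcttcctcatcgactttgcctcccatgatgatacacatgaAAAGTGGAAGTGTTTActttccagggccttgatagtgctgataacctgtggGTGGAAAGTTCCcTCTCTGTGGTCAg
Cd33: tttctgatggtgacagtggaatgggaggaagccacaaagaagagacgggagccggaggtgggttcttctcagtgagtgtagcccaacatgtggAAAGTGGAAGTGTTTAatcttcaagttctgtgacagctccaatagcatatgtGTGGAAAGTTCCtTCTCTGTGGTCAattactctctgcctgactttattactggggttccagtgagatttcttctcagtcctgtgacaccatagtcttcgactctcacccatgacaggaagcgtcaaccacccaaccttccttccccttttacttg
Siglece: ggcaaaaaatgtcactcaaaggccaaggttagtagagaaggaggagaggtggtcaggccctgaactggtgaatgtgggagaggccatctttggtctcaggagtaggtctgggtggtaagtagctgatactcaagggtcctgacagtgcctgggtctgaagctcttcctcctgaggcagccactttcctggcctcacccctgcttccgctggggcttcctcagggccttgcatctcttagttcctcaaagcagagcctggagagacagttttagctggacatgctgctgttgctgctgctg
In the Siglecf and Cd33 windows 40 of 300 bases stood in capitals, and the longest run, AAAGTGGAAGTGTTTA, was found in 2 of 32851 promoters (0.00609%), these being the pair itself. It began 27 bases before the start of Siglecf and 157 bases before that of Cd33. Siglece shared no run of that length with either gene.

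Pirb (ENSMUSG00000058818.13, chr7:3711409-3720391, minus strand) lies in another cluster of the same chromosome, beside its activating relatives Pira2 (chr7:3836812-3845051) and Lilra6 (chr7:3908280-3915503). Their promoters are shown because Pirb and these relatives differ in function and in the values below, and share most of these windows. Capitals mark bases of Pirb in a run of at least 12 shared with Pira2 or Lilra6, and bases of those genes in such a run shared with Pirb. The windows, all on the minus strand, are chr7:3720333-3720632 for Pirb, chr7:3845002-3845301 for Pira2 and chr7:3915452-3915751 for Lilra6.
Pirb: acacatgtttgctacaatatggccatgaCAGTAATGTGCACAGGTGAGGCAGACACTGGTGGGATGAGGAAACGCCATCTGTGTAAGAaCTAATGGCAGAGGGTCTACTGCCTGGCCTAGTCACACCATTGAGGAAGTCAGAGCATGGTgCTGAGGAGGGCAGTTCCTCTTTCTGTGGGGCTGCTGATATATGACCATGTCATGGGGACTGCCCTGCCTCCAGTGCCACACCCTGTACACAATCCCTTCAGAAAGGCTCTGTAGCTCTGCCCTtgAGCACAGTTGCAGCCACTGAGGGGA
Pira2: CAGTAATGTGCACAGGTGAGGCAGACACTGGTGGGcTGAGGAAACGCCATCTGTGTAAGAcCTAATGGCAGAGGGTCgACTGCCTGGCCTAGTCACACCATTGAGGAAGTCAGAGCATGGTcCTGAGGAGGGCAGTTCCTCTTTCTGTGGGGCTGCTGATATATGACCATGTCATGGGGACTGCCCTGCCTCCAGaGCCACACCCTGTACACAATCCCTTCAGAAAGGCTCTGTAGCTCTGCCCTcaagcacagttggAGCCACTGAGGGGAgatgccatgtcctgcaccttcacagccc
Lilra6: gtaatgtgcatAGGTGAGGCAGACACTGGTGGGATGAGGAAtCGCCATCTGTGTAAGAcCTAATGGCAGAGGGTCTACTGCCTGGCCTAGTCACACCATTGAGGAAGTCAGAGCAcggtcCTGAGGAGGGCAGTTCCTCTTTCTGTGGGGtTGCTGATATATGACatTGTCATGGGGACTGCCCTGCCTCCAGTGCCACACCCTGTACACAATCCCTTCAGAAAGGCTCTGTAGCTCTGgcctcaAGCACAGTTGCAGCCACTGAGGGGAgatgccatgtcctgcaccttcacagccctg
Capitals cover 89.3% of the Pirb window, 84.7% of the Pira2 window and 81.0% of the Lilra6 window. The longest unbroken run that Pirb shared was 73 bases with Pira2 and 72 bases with Lilra6.

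The promoters of 5 members were in the RefSeq table, and those of Lilrb4a and Sirpa were not. They were searched on both strands for 2 spellings of the sites that STAT proteins bind, TTCNNNGAA, which 8.3% of all 32851 promoters held, and TTCNNNNGAA, which 6.95% held. Each spelling reads the same on both strands. Neither was found in the windows of Cd33, Siglece, Siglecf, Pirb or Cd101. That says only that these letters are not in these windows.

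Reads on genes numbered from 779421 to 7782072 in a library. Both libraries of replicate 3 in the IL-4 experiment were shallow, and there 1 read stood for a normalized count of 5.14 in IL-4 + ACs and 5.36 in ACs. Macrophage markers were read in every group, with summed normalized counts over 11 genes of 15240 to 19260 in ACs, 7993 to 9563 in E. coli + ACs, 22300 to 31440 in IFN-γ + ACs and 9559 to 9712 in IFN-γ + E. coli + ACs. None of the 11 was at 0 throughout a group, and eosinophils also express Adgre1 (F4/80), which is among them. The 12 thymocyte markers summed to between 45.5 and 180 in any library. Of the eosinophil markers, Ccr3 had means of 2974 to 4498 in the 6 groups, whereas Epx, which encodes eosinophil peroxidase, had group means of at most 2.33 in the Type 1 experiment. Without Siglecf, the other 7 eosinophil markers summed to 4429 to 4629 in ACs, 6140 to 7237 in E. coli + ACs, 3342 to 4004 in IFN-γ + ACs and 5214 to 6292 in IFN-γ + E. coli + ACs. In bulk libraries, fewer cells of a type and less RNA per cell cannot be told apart.

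**Figure D1:**
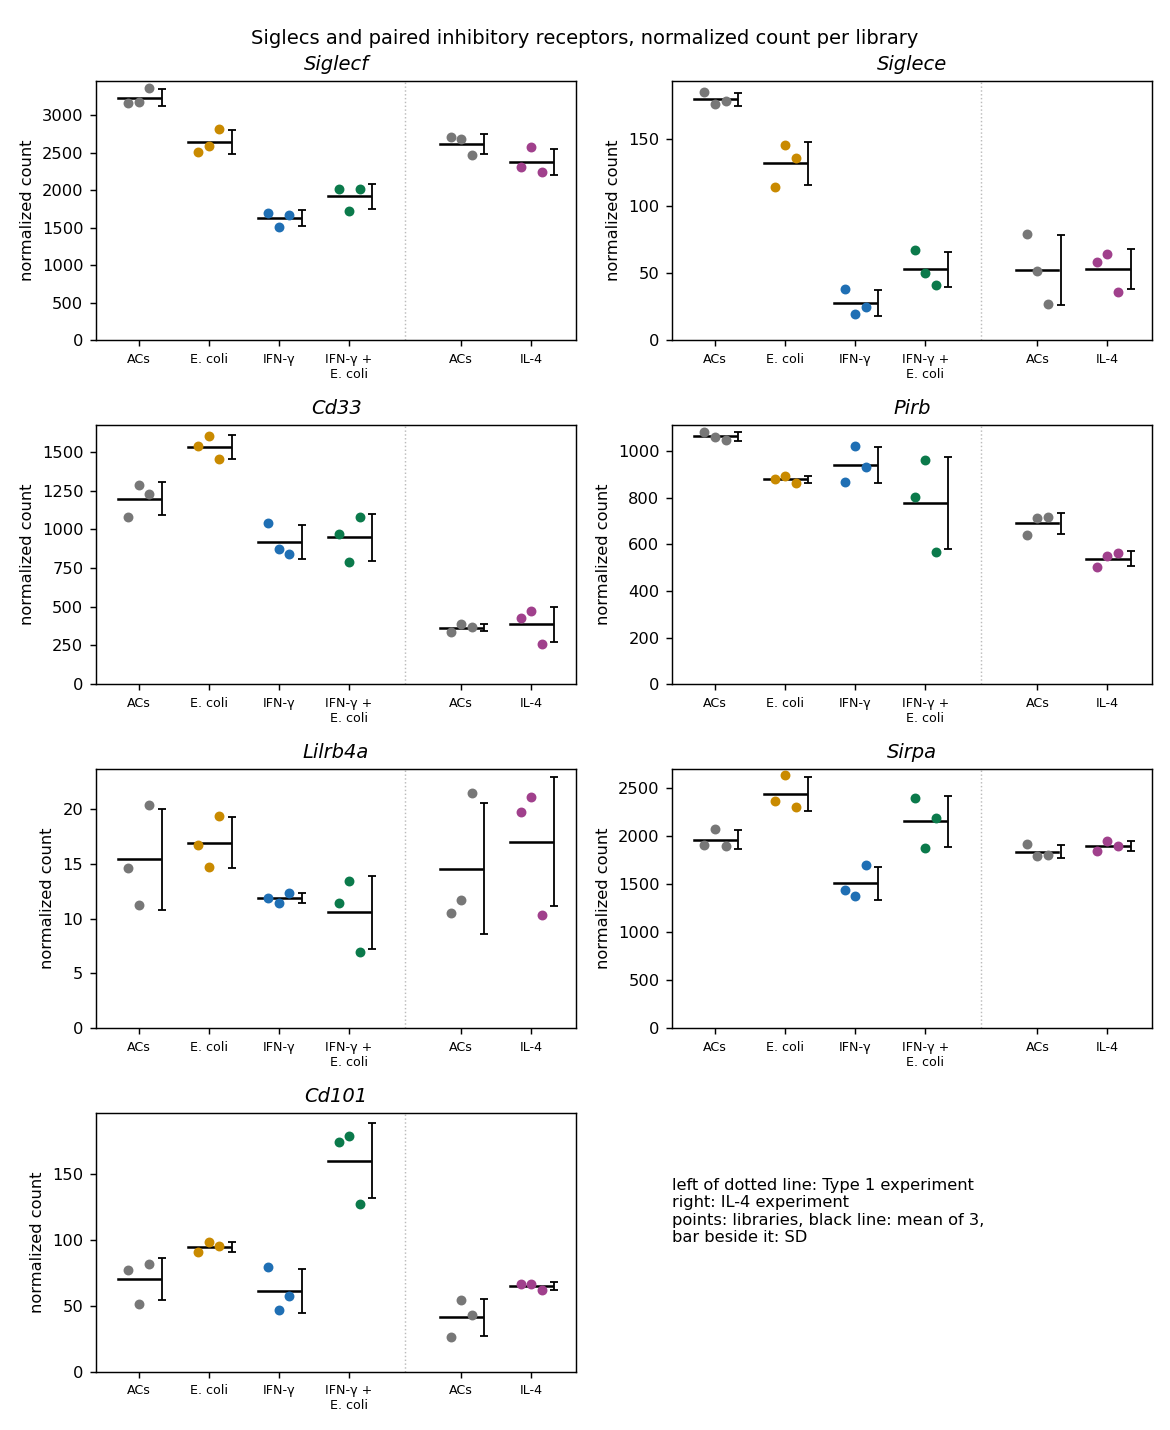
Normalized count (vertical axis, from 0, scaled per gene) of each of the 7 genes in every library, by group (horizontal axis), with the Type 1 experiment left of the dotted line and the IL-4 experiment right of it. Points are libraries, black lines are means of 3 and the bars beside them are SD. Siglece and Siglecf step down from ACs to IFN-γ + ACs, and Cd101 stands highest in IFN-γ + E. coli + ACs.

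Siglece and Siglecf were lower under IFN-γ, Cd101 was higher where IFN-γ and E. coli were combined, and Cd33, Pirb, Lilrb4a and Sirpa did not pass the threshold against ACs with any stimulus. A gene was called when limma gave a Benjamini-Hochberg adjusted p under 0.05 over all genes tested and the change on log2(normalized count + 1) was at least 1.5-fold. With E. coli alone, 0 of the 7 genes were called higher, where 5.05% of all genes were, and 0 were called lower, where 5.25% of all genes were. With E. coli, limma gave 3 members (Cd33, Siglecf and Sirpa) an unadjusted p under 0.05, and edgeR and DESeq2 also called 0. With IFN-γ alone, 0 members were called higher (11.4% of all genes) and 2 lower (9.96% of all genes). With both stimuli, 1 was called higher (14.7% of all genes) and 2 lower (17.2% of all genes). With IL-4, 0 were called higher (0.74% of all genes) and 0 lower (0.347% of all genes), where 2 (Pirb and Cd101) had an unadjusted p under 0.05 by limma and edgeR and DESeq2 also called 0. The median log2 fold change of the 7 members was 0.16 under E. coli, -0.38 under IFN-γ, -0.49 under both and 0.05 under IL-4, beside medians of all genes between -0.05 and 0.00. The median under E. coli is the value of Lilrb4a (SE 0.42), whose level is uncertain for the reason given below.

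**Figure D2:**
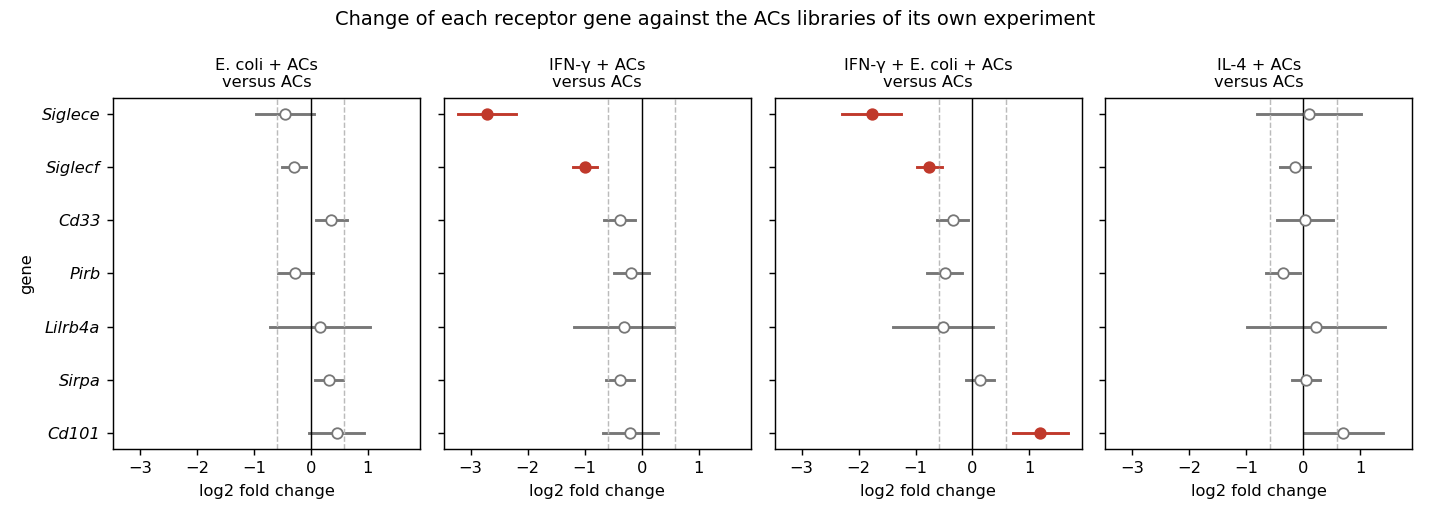
Log2 fold change (horizontal axis) of each gene (rows) against the ACs libraries of its own experiment, 1 panel per stimulus. Points are limma estimates from 3 libraries per group, lines are 95% confidence intervals, dashed lines mark 1.5-fold, and filled red points are past the threshold. Red points are found for Siglece and Siglecf under IFN-γ with and without E. coli, and for Cd101 under both stimuli.

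Siglec-E is an ITIM-bearing Siglec known mainly from neutrophils, monocytes and macrophages. Its normalized counts were 184.6, 175.5 and 177.8 in the ACs libraries, 38.3, 19.5 and 24.6 in IFN-γ + ACs, and 67.0, 50.1 and 41.4 in IFN-γ + E. coli + ACs. All of the values with IFN-γ lay below all of those without it, and none of the 4 groups of the Type 1 experiment overlapped another. Siglece fell by 2.72 on the log2 scale with IFN-γ alone (SE 0.24, 6.57-fold lower, adjusted p = 8.1e-08) and by 1.77 with IFN-γ and E. coli (SE 0.24, 3.41-fold lower, adjusted p = 1.2e-05). These values rest on few reads, with 12 to 29 reads in the IFN-γ + ACs libraries and 187 to 227 in ACs. The change was in the opposite direction to the sum of macrophage markers under IFN-γ alone and in the same direction under both stimuli. Of these macrophage markers, C1qb, Timd4, Mertk and Marco were called higher with IFN-γ alone. Vsig4 was called lower (-0.68, adjusted p = 0.041 by limma), and the rest were not called. With both stimuli, macrophage markers were called in both directions. The 9 neutrophil markers summed to 1606 to 1899 in ACs, 2313 to 2599 with E. coli, 2023 to 2536 with IFN-γ and 1127 to 1421 with both, so this sum too was opposite to Siglece under IFN-γ alone and in its direction under both. That sum rests mostly on Retnlg, with means of 1665 in ACs and 923 with both, where it was called lower (-0.86). The other tested markers of the list went the other way with both stimuli. S100a8 and S100a9 were called higher under each of these 3 stimuli, and Ly6g (2.01) and Cxcr2 (1.935) were called higher with both. The part of other cells in the Siglece values was not tested.

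E. coli alone left Siglece at 113.8, 145.5 and 135.5, a log2 difference from ACs of -0.45 with a 95% interval of -0.96 to 0.06 (adjusted p = 0.26). When IFN-γ was present as well, the same bacteria went with a higher value, by 0.95 (SE 0.24, adjusted p = 0.0096). The difference between these effects of E. coli, tested as the IFN-γ by E. coli interaction, was 1.396 (SE 0.345, 95% interval 0.67 to 2.12, adjusted p = 0.017). Of all genes, 7.44% passed the threshold for this interaction in either direction, and of the members limma called Siglece alone, while DESeq2 called Cd101 as well (0.99, adjusted p = 0.039). The call was lost when replicate 1 of E. coli + ACs was left out (1.296, adjusted p = 0.062) and when all 18 libraries shared a fit (adjusted p = 0.086). Without replicate 2 of IFN-γ + ACs the effect of E. coli in the presence of IFN-γ was 0.74 (adjusted p = 0.058), and without replicate 1 of IFN-γ + E. coli + ACs it was 0.76 (adjusted p = 0.055). In the fit of all 18 libraries its adjusted p was 0.052.

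Siglec-F is an inhibitory Siglec whose engagement by antibody is known to kill eosinophils. The Siglecf counts were 3169, 3175 and 3367 in ACs, 2508, 2595 and 2817 in E. coli + ACs, 1702, 1514 and 1675 in IFN-γ + ACs and 2020, 1728 and 2017 in IFN-γ + E. coli + ACs. No group overlapped another, and the order from high to low was the same as for Siglece. The log2 change was -0.99 with IFN-γ (SE 0.10, 1.99-fold lower, adjusted p = 5.5e-07) and -0.76 with IFN-γ and E. coli (SE 0.10, 1.69-fold lower, adjusted p = 1e-05). With E. coli it was -0.30 (SE 0.10, adjusted p = 0.066). The interaction was 0.53 (95% interval 0.23 to 0.84, adjusted p = 0.031), short of 1.5-fold, and passed it without replicate 2 of IFN-γ + E. coli + ACs (0.605, adjusted p = 0.01). Of the other 7 eosinophil markers, 5 were tested. Ear6, an eosinophil-associated ribonuclease, was lower with IFN-γ as well (log2 change -0.93, adjusted p = 1.8e-05) but higher with E. coli (1.502, adjusted p = 1.6e-07), and Ear2 was lower with both stimuli (-3.38, adjusted p = 0.00019). Prg2, of the granule core, did not pass (-0.20 with IFN-γ, -0.14 with both). Ccr3, the eotaxin receptor, did not pass under IFN-γ (log2 change -0.15, adjusted p = 0.36) and stood at 0.45 with both stimuli (adjusted p = 0.003), short of 1.5-fold. By limma Il5ra, the receptor of IL-5, was lower with IFN-γ (log2 change -0.71, adjusted p = 0.0021) and with E. coli (-0.64, adjusted p = 0.0091). With both stimuli it did not pass (-0.39, adjusted p = 0.055).

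Cd33 encodes a Siglec whose tail in the mouse differs from that of the human protein. It was read at 1078, 1285 and 1230 in ACs, at 1536, 1604 and 1454 in E. coli + ACs, at 1043, 875 and 837 in IFN-γ + ACs and at 971, 787 and 1082 in IFN-γ + E. coli + ACs. The E. coli + ACs libraries stood above all others, and the group with both stimuli overlapped both ACs and IFN-γ + ACs. Against ACs the log2 differences were 0.36 with E. coli (adjusted p = 0.077), -0.39 with IFN-γ (adjusted p = 0.032) and -0.35 with both (adjusted p = 0.039), none of them reaching 1.5-fold. Against E. coli + ACs, the addition of IFN-γ lowered Cd33 by a log2 change of -0.71 (SE 0.13, 1.63-fold lower, adjusted p = 0.00054). Without replicate 2 of IFN-γ + E. coli + ACs this became -0.58, under 1.5-fold. In this comparison 19.4% of all genes were called in either direction and 3 members were, Siglece (log2 change -1.32, adjusted p = 0.00058) and Cd101 being the others.

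CD101 is an immunoglobulin superfamily protein that inhibits T cell and myeloid activation. Its counts were 77.3, 51.6 and 81.6 in ACs, between 90.4 and 98.1 in the 3 libraries of E. coli + ACs, 79.1, 47.0 and 57.5 in IFN-γ + ACs and 173.9, 178.3 and 126.9 in IFN-γ + E. coli + ACs. Each library with both stimuli lay above every other library of the experiment. Cd101 rose by a log2 change of 1.19 against ACs (SE 0.23, 2.28-fold higher, adjusted p = 0.00045). With E. coli alone the difference was 0.45 (95% interval -0.03 to 0.94) and with IFN-γ alone -0.20 (95% interval -0.68 to 0.29), neither of them past the threshold. Within the libraries that received IFN-γ, E. coli raised Cd101 by 1.39 (SE 0.23, adjusted p = 0.00031), and 14.6% of all genes were called in that comparison in either direction. Members called there were 2, Siglece and Cd101, both higher. The interaction itself, 0.93 (95% interval 0.25 to 1.62), did not pass by limma (adjusted p = 0.087) but passed by DESeq2 (0.99, adjusted p = 0.039). It also passed without replicate 1 of IFN-γ + ACs (1.13, adjusted p = 0.043) and without replicate 3 of IFN-γ + E. coli + ACs (1.09, adjusted p = 0.05). The effect of IFN-γ in the presence of E. coli, 0.74 (adjusted p = 0.026), did not pass when any of the 3 E. coli + ACs libraries, or either of replicates 1 and 2 of IFN-γ + E. coli + ACs, was left out, with adjusted p from 0.055 to 0.082.

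Sirpa (ENSMUSG00000037902.18, chr2:129592835-129632228, plus strand) was read at 1892 to 2070 in ACs, 2300 to 2632 in E. coli + ACs, 1373 to 1699 in IFN-γ + ACs and 1870 to 2393 in IFN-γ + E. coli + ACs. The lowest group was IFN-γ + ACs, whose libraries overlapped none of the other 3 groups. Its log2 difference from ACs was -0.38 (SE 0.12, adjusted p = 0.019), and E. coli in the presence of IFN-γ went with 0.51 (SE 0.12, adjusted p = 0.004), both short of 1.5-fold. The latter passed 1.5-fold with array weights (0.59, adjusted p = 0.0026), without replicate 3 of IFN-γ + ACs (0.60, adjusted p = 0.0019) and without replicate 2 of IFN-γ + E. coli + ACs (0.61, adjusted p = 0.0011). With E. coli alone the difference was 0.31 (adjusted p = 0.086).

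PIR-B binds class I molecules of the major histocompatibility complex. Pirb counts were 1050 to 1085 in ACs, 866 to 895 in E. coli + ACs, 869 to 1024 in IFN-γ + ACs and 568 to 961 in IFN-γ + E. coli + ACs. The last group was the widest, replicate 3 standing at 568.4 and replicate 2 at 961.4, and every library with a stimulus lay below the ACs libraries. The log2 difference with both stimuli was -0.49 (SE 0.15, adjusted p = 0.013), short of 1.5-fold, but without replicate 2 it was -0.66 (adjusted p = 0.00086), past it, and without replicate 3 it was -0.28 (adjusted p = 0.076). With IFN-γ it was -0.18 (95% interval -0.49 to 0.13) and with E. coli -0.27 (95% interval -0.58 to 0.03).

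Lilrb4a (ENSMUSG00000112148.1, chr10:51490956-51496611, plus strand) encodes gp49B, which inhibits mast cells and binds fibronectin. Its counts, 6.9 to 21.5 over the 18 libraries, came from 2 to 40 reads each and overlapped between all groups compared with ACs. These values leave its level uncertain, for the following reason. All of the last 500 exonic bases of Lilrb4a, the end that CEL-Seq2 reads, also lie in exons of Gm49339 (chr10:51480612-51496613), a gene model on the same strand. In the union mode that the methods state, a read that falls in exons of 2 genes is assigned to neither, and Gm49339 was listed at 0 in all 18 libraries. No other member had exonic bases in another gene of its strand. Its relative Lilr4b (gp49A, chr10:51480632-51486703), which had no such overlap in its last 500 bases, was well read, at 594 to 668 in ACs and 1323 to 1936 in IFN-γ + E. coli + ACs.

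In the IL-4 experiment no member passed the threshold. Siglece was at 79.0, 51.4 and 26.8 in ACs and 57.9, 64.3 and 36.0 in IL-4 + ACs, and Siglecf at 2715, 2687 and 2472 and then 2310, 2577 and 2251. The log2 differences were 0.10 for Siglece, with a wide 95% interval of -0.81 to 1.00, and -0.14 for Siglecf (95% interval -0.40 to 0.12). The replicate 3 values of Siglece stood on 5 and 7 reads. Cd101 was at 26.3, 54.5 and 42.9 in ACs and 66.6, 66.4 and 61.7 in IL-4 + ACs, without overlap, and its difference of 0.70 (95% interval 0.005 to 1.396) had an adjusted p of 0.52. With weights estimated per library it was 1.04 (adjusted p = 0.007) and passed. Pirb was at 640, 716 and 718 and then 502, 549 and 565, also without overlap, with a difference of -0.36 (95% interval -0.65 to -0.07, adjusted p = 0.41). The intervals of Cd33 (-0.46 to 0.53) and Sirpa (-0.20 to 0.30) included 0.

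The response to IL-4 was set against that to IFN-γ in a fit of all 18 libraries, each stimulus against its own ACs, a comparison in which 14.3% of all genes were called in either direction. The members called were 2. For Siglece the IL-4 change exceeded the IFN-γ change by 2.81 (SE 0.46, adjusted p = 0.00018) and for Siglecf by 0.85 (SE 0.14, adjusted p = 0.00025). Cd33, at 0.42 (adjusted p = 0.29), passed with array weights (0.68), without replicate 3 of IL-4 + ACs (0.69) and without both replicate 3 libraries (0.70), and Cd101, at 0.90 (adjusted p = 0.12), passed with array weights (1.26). The experiments differed in level before any stimulus, the mean of Cd33 being 1198 in the ACs libraries of the Type 1 experiment and 365 in those of the IL-4 experiment, and that of Siglece 179 and 52.4. Siglecf (3237 and 2625) and Sirpa (1956 and 1832) lay closer together. The experiment and the ACs libraries cannot be told apart in such a comparison of levels.

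Other Siglecs were called lower and never higher. Of 6 listed, 3 passed the filter, and of these Siglecg was called under E. coli, 2 (Mag and Siglecg) under IFN-γ and 3 under IFN-γ and E. coli, all of them lower. Of all genes, 5.25% were called lower under E. coli, 9.96% under IFN-γ and 17.2% under both. Under IL-4 limma called 0 of the 3, with 2 at an unadjusted p under 0.05, and edgeR and DESeq2 each called 1. Siglecg, the inhibitory Siglec of B cells, went from 1726 to 1905 in ACs to 792 to 917 in E. coli + ACs, 300 to 418 in IFN-γ + ACs and 359 to 489 in IFN-γ + E. coli + ACs. Its log2 changes were -1.11 (adjusted p = 1.9e-05), -2.36 (adjusted p = 2.5e-10) and -2.16 (adjusted p = 6.1e-10), with an interaction of 1.304 (SE 0.20, adjusted p = 0.00045). The 4 B cell markers summed to 39.8 to 48.1 in ACs and 50.2 to 89.9 in E. coli + ACs. With IFN-γ they summed to 13.2 to 30.8, and with both stimuli to 14.3 to 55.0. Cd79a, the only B cell marker tested in this experiment, was not called. The part of B cells in the Siglecg values was not tested. Siglec1, the macrophage Siglec known as CD169, was at 162 to 242 in ACs and 39.1 to 73.1 in IFN-γ + E. coli + ACs (log2 change -1.95, adjusted p = 1.3e-05). The macrophage marker sum was also lower in that group, where C1qa, C1qb, C1qc, Gata6, Vsig4 and Cd68 were called lower but Adgre1 (0.72), Marco (0.84) and Mertk (0.60) higher. In E. coli + ACs, where that sum was likewise below ACs, Siglec1 stood at 159 to 284. There C1qa, C1qb, C1qc, Timd4, Vsig4 and Cd68 were called lower, and the other macrophage markers were not called. The part of macrophages in the Siglec1 values was not tested. Mag, a Siglec of myelin that is also read in these cells, had log2 changes of -1.15 with IFN-γ (adjusted p = 0.00079) and -0.73 with both (adjusted p = 0.017). Without replicate 3 of ACs or of IFN-γ + E. coli + ACs, the latter had an adjusted p of 0.082.

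Relatives of the paired receptors were called in either direction. Of 12 listed, 7 had a row and 3 passed the filter. Limma called 0 of them under E. coli and 0 under IL-4, with 1 at an unadjusted p under 0.05 each, and edgeR and DESeq2 also called 0 in both. Under IFN-γ Lilr4b was called higher and Pira2 lower, and under both stimuli Lilr4b and Lilra6 higher. Among all genes, 11.4% were called higher and 9.96% lower under IFN-γ, and 14.7% higher under both. Pira2, the activating receptor PIR-A2, was at 906 to 1103 in ACs, 849 to 892 in E. coli + ACs, 371 to 540 in IFN-γ + ACs and 970 to 1125 in IFN-γ + E. coli + ACs. IFN-γ alone lowered it by a log2 change of -1.07 (SE 0.14, adjusted p = 6.7e-06), and with E. coli present as well it overlapped ACs, the interaction being 1.37 (SE 0.19, adjusted p = 0.00018). Lilra6, another activating relative, showed an interaction of 0.92 (SE 0.17, adjusted p = 0.0028) and a change of 0.60 with both stimuli (adjusted p = 0.00074), close enough to 1.5-fold to fall under it without replicate 1 of ACs (0.56) or replicate 3 of IFN-γ + E. coli + ACs (0.57), and to 0.46 with libraries scaled to a common upper quartile. For Pirb the interaction was -0.03 with a 95% interval of -0.47 to 0.40. Genes of the PIR family are near copies of each other, so the division of reads among them is uncertain. In Pirb 4 of 451 windows of 50 bases near the end of the transcript occurred in another gene. Such windows were not counted for Pira2 or Lilra6, whose values thus keep this uncertainty. Lilr4b rose by 0.72 with IFN-γ and 1.29 with both stimuli.

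**Figure D3:**
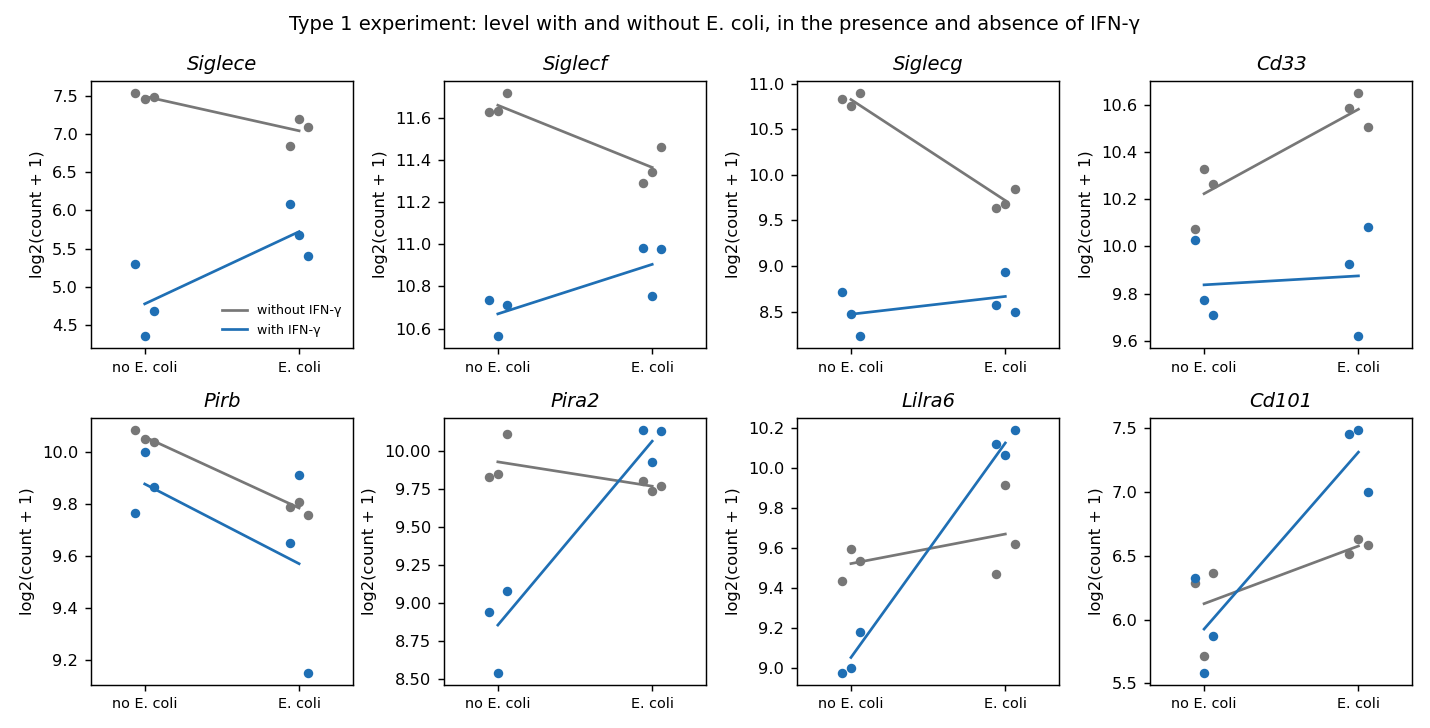
Log2(normalized count + 1) (vertical axis, a different range per gene and not from 0) without and with E. coli (horizontal axis), in the absence (grey) and presence (blue) of IFN-γ, for 8 genes of the Type 1 experiment. Points are libraries and lines join the means of 3. The lines of Siglece, Siglecg, Pira2, Lilra6 and Cd101 are far from parallel, those of Pirb nearly parallel. The interaction of Cd101 did not pass the threshold by limma.

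The other inhibitory receptors of myeloid cells, ITIM receptors apart from Cd200r1, moved in both directions. Of 12 listed, 11 were tested, and 2 were called higher and 2 lower with E. coli, 2 and 6 with IFN-γ, 2 and 4 with both and 2 and 1 with IL-4. The shares of all genes called higher and lower were 5.05% and 5.25% with E. coli and 11.4% and 9.96% with IFN-γ. They were 14.7% and 17.2% with both, and 0.74% and 0.347% with IL-4. Clec12a, which recognises uric acid crystals of dead cells, was at 908 to 997 in ACs and 23.5 to 29.3 in IFN-γ + E. coli + ACs, a log2 change of -5.07 (SE 0.17, adjusted p = 4.8e-14). Ceacam1, an adhesion receptor, changed by -2.53 (adjusted p = 8.8e-06) and Lair1, a collagen receptor, by 2.62 (adjusted p = 5.8e-05) in that comparison. Lair1 was lower with E. coli alone (-1.91, adjusted p = 0.0039), and without replicate 2 of E. coli + ACs the change was -1.19 (adjusted p = 0.0088).

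Downstream of the receptors, 13 genes of kinases, phosphatases and Dok adaptors were tested. The calls were 2 higher and 1 lower with E. coli, 2 and 2 with IFN-γ, 3 and 1 with both, and 0 with IL-4, where 2 had an unadjusted p under 0.05 by limma and edgeR and DESeq2 also called 0. Of all genes, 5.05% were called higher and 5.25% lower with E. coli, and 11.4% and 9.96% with IFN-γ. With both stimuli these shares were 14.7% and 17.2%. Src went from 3.25 to 12.2 in ACs to 46.4 to 77.3 with both stimuli (log2 change 3.18, adjusted p = 5.6e-06), a change from few reads that was 2.57 with a pseudocount of 5. Fyn, of the same family, was higher with IFN-γ (1.20, adjusted p = 0.0018). It was the gene called lower with E. coli (-0.82, adjusted p = 0.043), a call lost without any 1 of the 3 ACs libraries (adjusted p = 0.061 to 0.19), without replicate 2 or 3 of E. coli + ACs (both 0.15), without replicate 1 or 2 of IFN-γ + ACs (both 0.053), with no filter on low values (0.083) and in a fit of all 18 libraries (0.22). With IFN-γ, Dok3, an adaptor that carries inhibitory signals, was lower (-0.90, adjusted p = 0.00067). Of the 3 activating adaptors (Tyrobp, Fcer1g and Hcst), limma, edgeR and DESeq2 called 0 under any of the 4 stimuli, with log2 changes between -0.50 and 0.55. By limma 2 of them had an unadjusted p under 0.05 with E. coli, 2 with IFN-γ, 3 with both and 0 with IL-4, all short of 1.5-fold. Partners of SIRPα in the cell were 4, of which 2 were called higher with E. coli, 1 with IFN-γ and 2 with both, and 0 with IL-4 by limma, edgeR and DESeq2, where 1 had an unadjusted p under 0.05. The gene called with IFN-γ was Fyb (0.66), which fell under 1.5-fold without replicate 2 of ACs (0.58) and with libraries scaled to a common upper quartile (0.57). Fyb, an adaptor of adhesion, was at 1352 to 1648 in ACs and 4109 to 4322 with both stimuli (1.49, adjusted p = 2.1e-09), and Ptk2b, the kinase PYK2, changed by 1.30 (adjusted p = 5.6e-08).

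Ligands of the receptors were read in the same libraries. Of 8 listed, 7 were tested, with 1 called lower under E. coli, 2 higher under IFN-γ, 2 higher and 1 lower under both, and 0 under IL-4 by limma, edgeR and DESeq2, where 0 had an unadjusted p under 0.05. The shares of all genes were 5.25% lower under E. coli, 11.4% higher under IFN-γ, and 14.7% higher and 17.2% lower under both. B2m, the light chain of the class I molecules that PIR-B binds, went from 26680 to 35130 in ACs to 50340 to 63540 in IFN-γ + ACs (log2 change 0.90, adjusted p = 3e-05). Apoe, a ligand reported for LILRB4, changed by 0.83 with IFN-γ (adjusted p = 0.00011), and Fn1, fibronectin, by -1.50 with E. coli (adjusted p = 2.1e-05). Macrophages express both, the macrophage marker sums given above differed from ACs in the same directions, and their part in these changes was not tested.

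Among genes that make, transport, attach or remove sialic acid, the sugar that Siglecs bind, 14 of 18 were tested. With E. coli 0 were called by limma, edgeR and DESeq2, with 2 at an unadjusted p under 0.05. By limma 2 were called higher and 3 lower with IFN-γ, 2 and 5 with both, and 1 lower with IL-4. Neu1, which encodes a sialidase that removes sialic acid, was among the 5. Of all genes, 11.4% were called higher and 9.96% lower with IFN-γ, 14.7% and 17.2% with both, and 0.347% lower with IL-4. St3gal4 was at 238 to 278 in ACs and 74.5 to 108.8 in IFN-γ + ACs (log2 change -1.56, adjusted p = 2.2e-06), and St3gal3 changed by -1.87 (adjusted p = 0.012). For St3gal3 replicate 3 of IFN-γ + ACs stood at 4.1, on 2 reads, beside 31.7 and 43.6, and without it the change was -0.90 (adjusted p = 0.031). St3gal5, the synthase of the ganglioside GM3, was opposite under the cytokines, 1.16 with IFN-γ (adjusted p = 6.9e-07) and -1.62 with IL-4 (adjusted p = 0.00088).

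**Figure D4:**
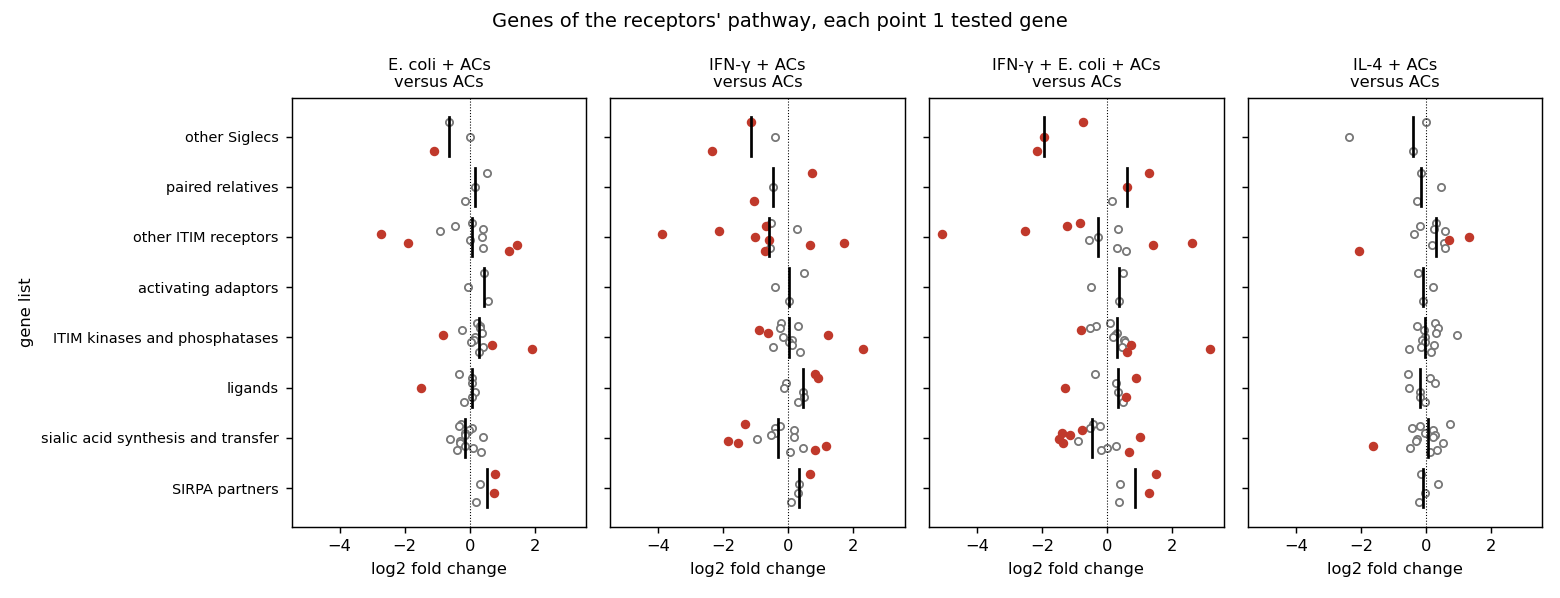
Log2 fold change (horizontal axis) of each tested gene of 8 lists (rows) against ACs, 1 panel per stimulus. Each point is 1 gene, filled red where it passed the threshold, and black bars are list medians. Other Siglecs lie to the left under IFN-γ with and without E. coli, red points of the SIRPα partners lie to the right in the 3 panels of the Type 1 experiment, and no activating adaptor is red.

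Over the 18 libraries, after subtraction of the mean of the ACs libraries of the same experiment on the log2 scale, Siglece and Siglecf had a Pearson r of 0.949, the closest pair among the members. The libraries share their groups and normalization, so this describes these samples only. Of 6896 other genes compared, those most like Siglece were Parvg (0.959), Sorl1 (0.955) and Relt (0.948), and those most like Siglecf were Eef2k (0.974), Relt (0.964) and Cbfa2t3 (0.960). Relt, a receptor of the TNF receptor family, thus appears in both lists, with means of 1517 in ACs and 661 in IFN-γ + ACs. Cbfa2t3, a transcriptional corepressor, had means of 786 and 47.9 in the same groups. Sirpa was most like Cd24a (0.952), whose means were 7906 in ACs, 9825 in E. coli + ACs and 5953 in IFN-γ + ACs. Closest to Cd101 were Dapp1 (0.832), Sept11 (0.812) and Pde4b (0.810), to Pirb Abca3 (0.845), Dnm2 (0.838) and Tcn2 (0.829), and to Cd33 Rnf113a2 (0.833), Yaf2 (0.796) and Ormdl1 (0.786). Those listed for Lilrb4a (Brd3, 0.888, Oaf, 0.841, and Gm38104, 0.801) rest on its few reads. Pirb and Cd101 were the members with the most negative r between them, -0.516.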

How the data were processed

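The deposited signal of a gene is its read count over the size factor of the library, as the authors computed it with DESeq2. The submitters' processing notes name TopHat2 2.1.0, HTSeq 0.6.1, DESeq2 1.26.0 and GRCm38. The methods state union mode and also describe alignment with STAR, and do not say which produced this table. Whole reads were recovered from the values for 100.0% of those under 100 reads in each library. Of 54446 identifiers, 54409 matched a symbol. Tests used limma (version 3.58.1, R 4.3.3, lmFit and eBayes with trend) on log2(value + 1), keeping genes whose mean reached 10, in the Type 1 libraries, the IL-4 libraries or all 18. Replicates are separate samples in the labels, and the methods call them biological. Same-numbered libraries did not deviate together (mean correlation 0.005 and 0.01 in the 2 experiments). The members and lists were chosen with earlier results of these data known. In each list at most 3 genes were named by rule, those with the largest change among called genes whose higher group averaged 50 or more. Outside this rule Neu1, Cd200r1 and the 3 activating adaptors were named. For likeness the 3 genes with the highest r were named. Alternatives included edgeR 4.0.16 and DESeq2 1.42.0 on recovered reads. The fits were tested on simulated data with planted changes larger than most member changes. That test did not cover the interaction or the comparisons with E. coli. Of the 12 paired relatives, 5 PIR genes had no row. Protein sequences were not used here. Promoters are from RefSeq.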

Additional observations from a re-analysis of the deposited data

Results flagged for a closer look

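The effect of E. coli on Siglece differed with and without IFN-γ, by 1.396 on the log2 scale (limma interaction, adjusted p = 0.017). Without IFN-γ the 3 libraries with E. coli all lay below the 3 without it, at 113.8 to 145.5 against 175.5 to 184.6. That difference, -0.45 (95% interval -0.96 to 0.06), was not called by limma (adjusted p = 0.26). With IFN-γ the libraries with E. coli all lay above those without it, at 41.4 to 67.0 against 19.5 to 38.3. This higher value lost its limma call without replicate 2 of IFN-γ + ACs (adjusted p = 0.058) or replicate 1 of IFN-γ + E. coli + ACs (0.055). It also lost it in a fit of all 18 libraries (0.052). When each of the 12 libraries was left out in turn, the interaction ran from 1.186 to 1.655, and its call was lost without replicate 1 of E. coli + ACs (adjusted p = 0.062). The call of the interaction was also lost in a fit of all 18 libraries (adjusted p = 0.086).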

How the results depend on the processing

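Counts of called members and of all called genes stayed within 1.5 times the values given in 235 of 249 recomputations (94.4%). Of 1175 recomputed member changes, 1129 (96.1%) kept direction and side of the threshold, 14 gained a call, 13 lost it and 19 turned sign, and of 997 for named list genes 974 did, the other 23 losing the call. With no fold threshold, 4 members were lower under IFN-γ and 4 under both stimuli. With array weights, 1 member was higher under IL-4. All genes called under IL-4 numbered 116, and 208 without a filter on low values, 745 with array weights, 212 by edgeR, 209 by DESeq2, 221 in a fit of all 18 libraries, 656 without both replicate 3 libraries, and 47 to 130 when 1 library was left out. With the replicate number as a block they numbered 74, and the block changed no call of a member and, of the named list genes, ended that of Fyn under E. coli (adjusted p = 0.054), one of several settings that did, the samples sharing only a number. Rescaling to a common upper quartile moved the median of all genes under IFN-γ and E. coli from -0.05 to -0.18, so that 1155 were called higher and 2200 lower, not 1494 and 1746. In the effect of IFN-γ with E. coli present it moved the median from -0.04 to -0.15 and the calls from 995 higher and 973 lower to 769 and 1352. It put Sirpa under both stimuli at -0.01 and Cd33 in the effect of E. coli with IFN-γ present at -0.013. It also put Pirb past the threshold under both stimuli (-0.63), and ended the calls of Cd101 in the effect of IFN-γ with E. coli present (0.63, adjusted p = 0.054), of Lilra6 under both stimuli (0.46) and of Fyb under IFN-γ (0.57). Other values that turned sign were uncalled. Siglece under IL-4 was -0.185 with array weights, -0.035 by edgeR, -0.019 by DESeq2 and -0.061 without both replicate 3 libraries, and the Pirb interaction was 0.028 by edgeR and 0.028 by DESeq2. Leaving out 1 library at a time gave -0.036 to 0.365 for Lilrb4a under E. coli, -0.134 to 0.303 for Cd33 and -0.31 to 0.452 for Siglece under IL-4, -0.065 to 0.165 for Cd33 and -0.379 to 0.056 for Lilrb4a in the effect of E. coli with IFN-γ present, and -0.203 to 0.176 for the Pirb interaction. The causes were not tested. In the shallow IL-4 and ACs libraries, 3 reads stand for 15.4 and 16.1, and Lilrb4a rested on 2 and 4 reads, Siglece on 7 and 5 and Cd101 on 12 and 8.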
